A study of Mus musculus with 10 samples.

Results

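Nitric oxide (NO) and cyclic GMP (cGMP) genes were measured in whole hearts of trained and sedentary mice, by a list of 10 named genes out of the 56748 gene identifiers of the count files. The list holds the NO synthases Nos1 and Nos3, the soluble guanylate cyclase subunits Gucy1a1 and Gucy1b1, the cGMP-dependent kinase gene Prkg1, the phosphodiesterase gene Pde5a, the dimethylarginine dimethylaminohydrolase (DDAH) genes Ddah1 and Ddah2, and Cav1 and Nostrin, whose products bind and restrain endothelial NO synthase. All 10 were matched by Ensembl identifier, and all 10 passed the filter on low counts. The RNA came from 5 wild-type C57BL/6 mice after 8 weeks of forced treadmill running (Exercise in the labels, 120 min at 15 m/min on 5 days per week) and from 5 sedentary wild-type mice (Control in the labels). Mice were bought at 8 weeks of age and rested for at least 2 weeks, and the training mice then had 1 week of acclimatization. Each library was made from 1 heart with both atria. The comparison asks which cardiac transcripts differ after forced endurance training.

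In background terms, NO synthases make NO from arginine, and NO diffuses into neighbouring cells, where it binds the heme of soluble guanylate cyclase and switches on the synthesis of cGMP. Protein kinase G relays the cGMP signal to relaxation of vascular smooth muscle and to calcium handling and growth in cardiomyocytes, and phosphodiesterases end it. Asymmetric dimethylarginine blocks NO synthases and is broken down by DDAH1, an activity that is disputed for its paralog DDAH2. In the heart, Nos3 belongs mainly to endothelium and Nos1 to cardiomyocytes and nerves, while the cyclase and the kinase are prominent in vascular smooth muscle and pericytes.

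Libraries held between 29461697 and 35945417 counts on genes in the training hearts and between 35196993 and 39431030 in the sedentary hearts. Levels are given as CPM, counts scaled to a common library size after TMM correction, and both groups were compared by edgeR (quasi-likelihood F-test), its p-values adjusted over all genes after Benjamini and Hochberg. A gene is called where this adjusted p (FDR) is below 0.1. Cardiomyocyte markers summed to between 79967 and 84073.5 CPM in the training hearts and between 83301 and 93818 CPM in the sedentary hearts. Of these 10 markers, 9 were below 0 in log2 fold change (median −0.11), 1 was called lower and none was at 0 counts. Skeletal muscle markers summed to at most 4.60 CPM. Marker levels differed between the groups. The summed level of 10 endothelial markers lay between 915 and 975 CPM in the training hearts and between 1006 and 1062 CPM in the sedentary hearts, with 7 of 10 below 0 in log2 fold change, 2 called lower and none at 0 counts. All 8 atrial markers were above 0, with a median log2 fold change of 0.49, 4 called higher and none at 0 counts, and their sum ranged from 5368 to 7985 CPM against 2983 to 7125 CPM. In whole-heart RNA, fewer cells of a type and less RNA per cell cannot be told apart.

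Differences between the groups were small in the 10 genes. None passed an FDR below 0.1, against 7.01% of the 15454 genes tested (1084 genes). At an unadjusted p below 0.05, 2 of the 10 were higher (Gucy1a1 and Ddah2) and 0 lower in edgeR's test, where 20.0% of all tested genes passed that level (9.40% higher and 10.6% lower). DESeq2's Wald test called 0 of the 10 and had 3 at an unadjusted p below 0.05, with Cav1 as the third. In log2 fold change 6 of the 10 lay above 0, as did 50.1% of all tested genes, and the median was 0.082 against 0.00026 over all tested genes. No gene of the list had training and sedentary hearts without overlap, which 5.06% of all genes had (2.12% higher and 2.94% lower). The 95% intervals of the log2 fold changes reached at most 0.54 from 0, so that a change in any of the 10 beyond that size lay outside its own interval.

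**Figure D1:**
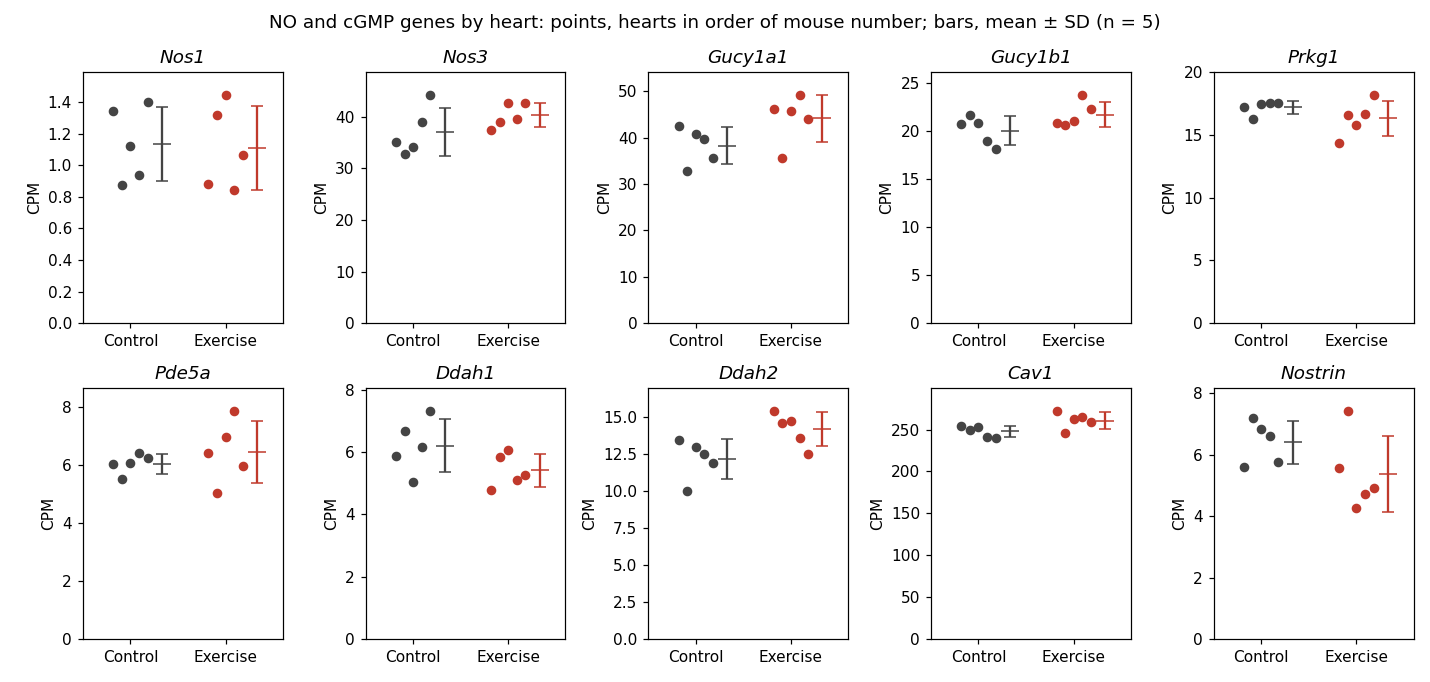
CPM of the 10 genes (y axes from 0) in each heart, sedentary (Control) in black and training (Exercise) in red, with the mean ± SD of 5 hearts beside the points. The groups overlap in every panel. In Gucy1a1, Ddah2 and Cav1, 4 of 5 training hearts lie above all sedentary hearts. In Nostrin, 4 of 5 lie below all sedentary hearts and 1 lies above them all.

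Per transcript length, the 10 genes differed widely in level. In TPM, the length-normalised transcript abundance deposited from RSEM, Cav1 was highest at 126 ± 8.45 TPM (SD, n = 10 hearts), followed by Ddah2 at 12.0 ± 1.81, Gucy1a1 at 10.0 ± 1.87, Nos3 at 9.46 ± 1.20 and Gucy1b1 at 6.94 ± 0.761 TPM. Lower levels were found for Nostrin (3.62 ± 0.744 TPM), Prkg1 (2.64 ± 0.329), Ddah1 (2.16 ± 0.267), Pde5a (0.92 ± 0.128) and Nos1 (0.165 ± 0.0772). Gucy1a1 and Nos3 could not be ordered beyond their spread, since Gucy1a1 was the higher of both in 6 of 10 hearts. Nostrin exceeded Prkg1, and Prkg1 exceeded Ddah1, in 8 of 10 hearts each, and the other neighbours in this order kept it in all 10 hearts. Nos3 was higher per length than Nos1 in every heart.

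Nos3 (ENSMUSG00000028978, chromosome 5 of GRCm39, 24569787 to 24589475, plus strand) encodes endothelial NO synthase. It was counted at 37.5, 38.9, 42.8, 39.6 and 42.8 CPM in training hearts 1 to 5 and at 35.1, 32.8, 34.2, 38.9 and 44.3 CPM in sedentary hearts 1 to 5. All 5 training hearts lay above the sedentary mean, but sedentary heart 5 was higher than any of them. The means were 40.3 ± 2.37 and 37.1 ± 4.64 CPM (SD, n = 5 each), a log2 fold change of 0.12 ± 0.075 (SE, 95% interval −0.039 to 0.28, edgeR-adjusted p = 0.399). On the opposite strand, Gm15587, a long noncoding RNA gene, shares 26.7% of the exonic bases of Nos3 and Atg9b shares 5.94%. Counting both strands together kept 61.9% of the Nos3 reads that the reverse strand held, and the log2 fold change was then 0.10.

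Nos1 (ENSMUSG00000029361, chromosome 5, 117918971 to 118096905, plus strand), the gene of neuronal NO synthase, was the weakest member, with between 27 and 54 reads per heart. The training hearts were at 0.878, 1.32, 1.45, 0.840 and 1.06 CPM and the sedentary hearts at 1.34, 0.876, 1.12, 0.939 and 1.40 CPM. Both groups covered nearly the same range, and the spread of 24.1% (coefficient of variation) in the training hearts exceeded the 15.8% that counting alone gives at this depth. Its log2 fold change was −0.032 ± 0.20 (SE, 95% interval −0.45 to 0.39, edgeR-adjusted p = 0.949), and its interval was the widest of the 10.

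Soluble guanylate cyclase, the NO receptor, is a dimer of the products of Gucy1a1 (ENSMUSG00000033910, chromosome 3, 81999733 to 82053216) and Gucy1b1 (ENSMUSG00000028005, chromosome 3, 81939312 to 81982022). Both genes lie on the minus strand, 17710 bases apart, and their start-site windows are shown because they are the only neighbouring pair of the list and encode 1 enzyme. The windows are from RefSeq (GRCm38.p6, minus strand, 250 bases before to 50 after the start, written 5′ to 3′). Capitals mark GC boxes (GGGCGG) and CCAAT boxes (CCAAT), on either strand.
Gucy1a1, chr3:82145601-82145900: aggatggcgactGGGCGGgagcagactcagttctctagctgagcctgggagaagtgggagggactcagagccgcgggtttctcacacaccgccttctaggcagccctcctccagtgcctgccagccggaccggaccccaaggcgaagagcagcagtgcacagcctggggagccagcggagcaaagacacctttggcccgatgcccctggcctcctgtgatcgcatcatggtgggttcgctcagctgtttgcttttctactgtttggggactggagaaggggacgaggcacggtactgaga
Gucy1a1, second start, chr3:82145024-82145323: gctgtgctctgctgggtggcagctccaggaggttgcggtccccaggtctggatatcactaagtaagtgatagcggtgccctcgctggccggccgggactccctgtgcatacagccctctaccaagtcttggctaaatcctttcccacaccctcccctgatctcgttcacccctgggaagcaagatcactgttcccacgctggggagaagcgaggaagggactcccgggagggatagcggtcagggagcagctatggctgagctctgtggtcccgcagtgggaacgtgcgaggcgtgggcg
Gucy1b1, chr3:82074662-82074961: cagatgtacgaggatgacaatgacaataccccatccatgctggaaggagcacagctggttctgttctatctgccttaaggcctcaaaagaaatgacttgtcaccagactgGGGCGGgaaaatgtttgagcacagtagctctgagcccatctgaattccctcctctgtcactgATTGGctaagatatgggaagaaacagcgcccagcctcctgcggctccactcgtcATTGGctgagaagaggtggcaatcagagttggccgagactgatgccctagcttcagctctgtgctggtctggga
The first Gucy1a1 window and the Gucy1b1 window hold 1 GC box each, and the Gucy1b1 window also holds 2 CCAAT boxes. The second Gucy1a1 window holds neither, and the TATA box (TATAAA) was found in 0 of the 3. Of 32851 windows of the same length, 35.7% hold the GC box, 37.4% the CCAAT box and 13.6% the TATA box. GC content was 62.3% in both Gucy1a1 windows and 52.3% in the Gucy1b1 window, against a median of 52.7% over all windows. A match of these letters is a description of the window and shows no binding.

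Gucy1a1, the alpha subunit, was at 46.1, 35.7, 45.8, 49.3 and 44.0 CPM in training hearts 1 to 5 and at 42.5, 32.8, 40.8, 39.8 and 35.6 CPM in sedentary hearts 1 to 5. In 4 of 5 training hearts it lay above every sedentary heart, while training heart 2 fell among the sedentary hearts. The log2 fold change was 0.21 ± 0.085 (SE, 95% interval 0.022 to 0.39, edgeR-adjusted p = 0.198), with means of 44.2 ± 5.10 and 38.3 ± 4.00 CPM (SD, n = 5). Without training heart 2 it was 0.27 and called (edgeR-adjusted p = 0.0537). In 9 of 10 fits without 1 heart it was not called (edgeR-adjusted p of at most 0.371). With the mean score of the 8 atrial markers as a covariate it was −0.0043 ± 0.082 (SE). With the score of the 10 endothelial markers it was −0.055 ± 0.16 (SE). The endothelial scores of the groups do not overlap, so that fit can hardly separate the score from training. Gucy1b1, the heme-binding beta subunit, was at 20.9, 20.6, 21.1, 23.8 and 22.3 CPM in the training hearts and at 20.8, 21.7, 20.9, 18.9 and 18.1 CPM in the sedentary hearts. The groups overlapped, with 2 training hearts above all sedentary hearts, and the log2 fold change was 0.11 ± 0.061 (SE, 95% interval −0.016 to 0.24, edgeR-adjusted p = 0.317).

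Within a heart, the log2 ratio of Gucy1a1 to Gucy1b1 hardly depends on how libraries are scaled. It averaged 1.02 ± 0.140 in the training and 0.93 ± 0.190 in the sedentary hearts (SD, n = 5), a difference of 0.089 (exact two-sided permutation test, p = 0.476, adjusted over 11 ratios 0.672). The ratio lay between 0.60 and 1.14 over all hearts. This range within the groups was larger than the difference between their means.

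Prkg1 (ENSMUSG00000052920, chromosome 19, 30541889 to 31742479, minus strand) encodes cGMP-dependent protein kinase I, the main effector of cGMP in vessels and myocardium. It was at 14.3, 16.6, 15.8, 16.7 and 18.2 CPM in training hearts 1 to 5 and at 17.2, 16.3, 17.5, 17.5 and 17.5 CPM in sedentary hearts 1 to 5. The sedentary hearts were tightly grouped, and 4 of 5 training hearts lay below their mean. The means were 16.3 ± 1.42 and 17.2 ± 0.530 CPM (SD, n = 5), and the log2 fold change was −0.078 ± 0.061 (SE, 95% interval −0.21 to 0.052, edgeR-adjusted p = 0.515). Without a correction for library composition it was −0.024.

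Pde5a (ENSMUSG00000053965, chromosome 3, 122522594 to 122653023, plus strand), the gene of the cGMP-specific phosphodiesterase that sildenafil inhibits, was at 6.43, 5.04, 6.96, 7.88 and 5.97 CPM in the training hearts. In the sedentary hearts it was at 6.04, 5.52, 6.07, 6.43 and 6.25 CPM. The training hearts held both the lowest value of all 10 hearts, in training heart 2, and the highest, in training heart 4. Its log2 fold change was 0.090 ± 0.10 (SE, 95% interval −0.13 to 0.32, edgeR-adjusted p = 0.683), and with the atrial score as a covariate it was −0.036 ± 0.14 (SE). An antisense long noncoding RNA gene shares 15.9% of its exonic bases, and the counts used here separate the strands.

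Ddah1 encodes an enzyme that clears methylarginine inhibitors of NO synthase, and Ddah2 encodes its paralog. Their log2 fold changes had opposite signs. Ddah2 (ENSMUSG00000007039, chromosome 17, 35277987 to 35281073, plus strand) was at 15.4, 14.6, 14.7, 13.6 and 12.5 CPM in training hearts 1 to 5 and at 13.5, 10.0, 13.0, 12.5 and 11.9 CPM in sedentary hearts 1 to 5. Of the training hearts, 4 lay above every sedentary heart. This gave means of 14.2 ± 1.14 and 12.2 ± 1.34 CPM (SD, n = 5) and a log2 fold change of 0.22 ± 0.081 (SE, 95% interval 0.048 to 0.39, edgeR-adjusted p = 0.149). It was called without sedentary heart 1 (log2 fold change 0.26, edgeR-adjusted p = 0.0887) and with library totals alone (0.27). In 9 of 10 fits without 1 heart it was not called (edgeR-adjusted p of at most 0.266). With a marker score as a covariate it was 0.065 ± 0.091 (SE, atrial) and −0.17 ± 0.12 (SE, endothelial). Ddah1 (ENSMUSG00000028194, chromosome 3, 145464361 to 145600032, plus strand) was at 4.78, 5.84, 6.05, 5.10 and 5.27 CPM in the training hearts and at 5.86, 6.69, 5.03, 6.15 and 7.31 CPM in the sedentary hearts. None of the training hearts exceeded the sedentary mean, but only 1 fell below all sedentary hearts. The log2 fold change was −0.20 ± 0.10 (SE, 95% interval −0.42 to 0.028, edgeR-adjusted p = 0.318), and it was 0.059 ± 0.21 (SE) with the endothelial score as a covariate.

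The log2 ratio of Ddah1 to Ddah2 within a heart was −1.38 ± 0.176 in the training and −0.97 ± 0.327 in the sedentary hearts (SD, n = 5), and all 5 training hearts lay below the sedentary mean. The difference of −0.41 had an exact two-sided permutation p of 0.0397, and 0.146 after adjustment over the 11 ratios, which misses the threshold of 0.1. Without sedentary heart 3 the difference was −0.51 (exact permutation test, adjusted p = 0.0873). In 9 of 10 tests without 1 heart it was not called (exact permutation test, adjusted p of at most 0.262). Of the 4 ratios between members, those of Nos1 to Nos3 and of Nos3 to Cav1 differed by −0.17 and 0.054 (exact permutation, two-sided, adjusted p = 0.611 and 0.672).

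Cav1 (ENSMUSG00000007655, chromosome 6, 17306140 to 17341451, plus strand) encodes caveolin-1, the scaffold of endothelial caveolae that binds and inhibits NO synthase. It had the most reads of the list, with between 7818 and 10221 per heart. It was at 272, 246, 262, 264 and 259 CPM in training hearts 1 to 5 and at 254, 249.6, 253, 241 and 240.3 CPM in sedentary hearts 1 to 5. Apart from training heart 2, each training heart lay above all sedentary hearts. The means differed by little, 261 ± 9.67 against 248 ± 6.42 CPM (SD, n = 5), with a log2 fold change of 0.074 ± 0.038 (SE, 95% interval −0.0080 to 0.16, edgeR-adjusted p = 0.302). This was the narrowest interval of the list.

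Nostrin (ENSMUSG00000034738, chromosome 2, 68966099 to 69025220, plus strand), whose product carries endothelial NO synthase away from the plasma membrane, was at 5.55, 7.42, 4.26, 4.73 and 4.91 CPM in training hearts 1 to 5. The sedentary hearts were at 5.59, 7.18, 6.84, 6.60 and 5.75 CPM. Training heart 2 was the highest of all 10 hearts and the other 4 training hearts were the lowest. The log2 fold change was −0.25 ± 0.13 (SE, 95% interval −0.54 to 0.040, edgeR-adjusted p = 0.326). Without training heart 2 it was −0.39 and called (edgeR-adjusted p = 0.0583). In 9 of 10 fits without 1 heart it was not called (edgeR-adjusted p of at most 0.552). With the atrial score as a covariate over all 10 hearts it was −0.063 ± 0.16 (SE). On the opposite strand, the protein-coding gene Spc25 shares 48.8% of the exonic bases of Nostrin, and the counts used here separate the strands.

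**Figure D2:**
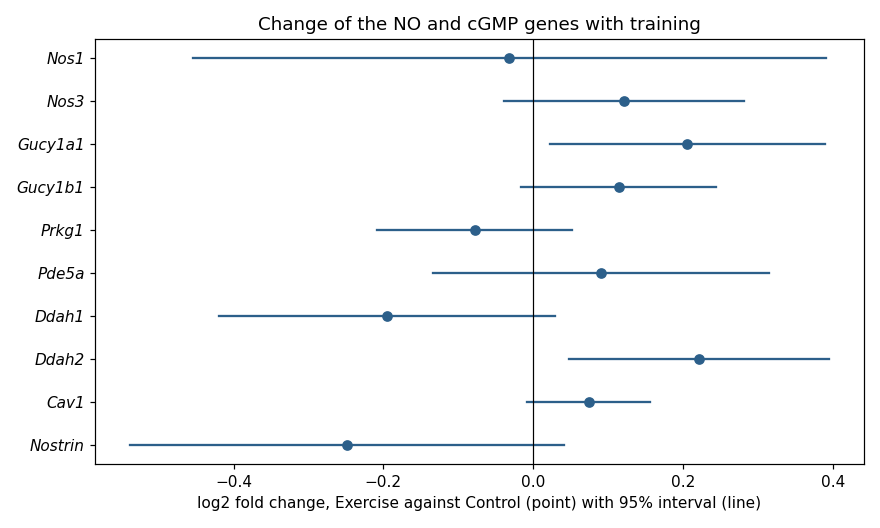
Log2 fold change of each of the 10 genes between training and sedentary hearts (x axis; points) with its unadjusted 95% interval (lines) from edgeR. The intervals of Gucy1a1 (0.022 to 0.39) and Ddah2 (0.048 to 0.39) lie above 0, those of the other 8 genes include it, and those of Nos1 and Nostrin are the widest.

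Endothelial members were set against the endothelial markers of the same heart, since the summed marker level was lower in every training heart. That fall (median log2 fold change of the markers −0.088) raises each ratio to them by itself. Cav1 alone had a log2 fold change of 0.074 and was not called, so its ratio also holds the fall in the markers. Cav1 is not specific to endothelium. Fibroblast markers were above 0 in 8 of 8 genes (3 called higher), adipocyte markers in 6 of 6 (none called) and mural markers in 6 of 10. Their part in the Cav1 ratio was not tested. The log2 level of Cav1 exceeded the mean log2 level of the 10 markers by 1.85 ± 0.0691 in the training and by 1.69 ± 0.0527 in the sedentary hearts (SD, n = 5). All 5 training hearts lay above the sedentary mean, and the difference of 0.16 passed the threshold (exact two-sided permutation test, p = 0.0159, adjusted over 11 ratios 0.0873). With each marker left out of the list in turn it stayed between 0.14 and 0.18. The call held without training heart 2 or sedentary heart 3 or 5, and it was lost without any of the other 7 hearts (exact permutation test, adjusted p of at most 0.153). The difference without 1 heart ran from 0.13 to 0.18, and the test then has fewer assignments and coarser p-values. Nos3 differed by 0.21 relative to the same markers, with 5 of 5 training hearts above the mean of the sedentary ones (exact permutation, two-sided, p = 0.0556, adjusted 0.153). Without sedentary heart 5 this difference was 0.28 (exact permutation test, adjusted p = 0.0873). In 9 of 10 tests without 1 heart it was not called (exact permutation test, adjusted p of at most 0.240). Nostrin differed by −0.18 relative to the markers and exceeded the mean of the sedentary hearts in 1 of 5 (exact permutation, two-sided, p = 0.270, adjusted 0.594).

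Among members known from vascular smooth muscle and pericytes, Prkg1 was lower relative to 10 mural markers of the same heart. Its log2 ratio to them was −2.22 ± 0.107 in the training and −1.999 ± 0.108 in the sedentary hearts (SD, n = 5), and it was below the sedentary mean in 5 of 5 training hearts. The difference of −0.23 passed the threshold (exact two-sided permutation test, p = 0.0159, adjusted over 11 ratios 0.0873), but the call held without sedentary heart 3 or 5 only and was lost without any of the other 8 hearts (exact permutation test, adjusted p of at most 0.153). The difference without 1 heart ran from −0.26 to −0.18, and the test then has fewer assignments and coarser p-values. Cav1 relative to endothelial markers had the same p in this test, and both adjusted values of 0.0873 rest on that tie. The mural markers themselves did not move as 1 group: the contractile genes Tagln (log2 fold change 0.54) and Cnn1 (0.75) were called higher and the pericyte gene Rgs5 (−0.18) lower. The contractile genes Acta2 (−0.069) and Myh11 (0.35) were not called. The remaining mural markers lay on both sides of 0, between −0.086 and 0.15, and none was called. In a split of the list made after the values were seen and not tested, Prkg1 differed by −0.47 relative to Acta2, Tagln, Myh11 and Cnn1 and by −0.064 relative to the other 6 mural markers. Gucy1a1, Gucy1b1 and Pde5a differed by 0.059, −0.030 and −0.069 relative to the mural markers (exact two-sided permutation test, adjusted p = 0.672, 0.746 and 0.672). Mural markers summed to between 1300 and 1480 CPM in the training and between 1324 and 1522 CPM in the sedentary hearts, with 6 of 10 above 0 in log2 fold change and none at 0 counts.

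**Figure D3:**
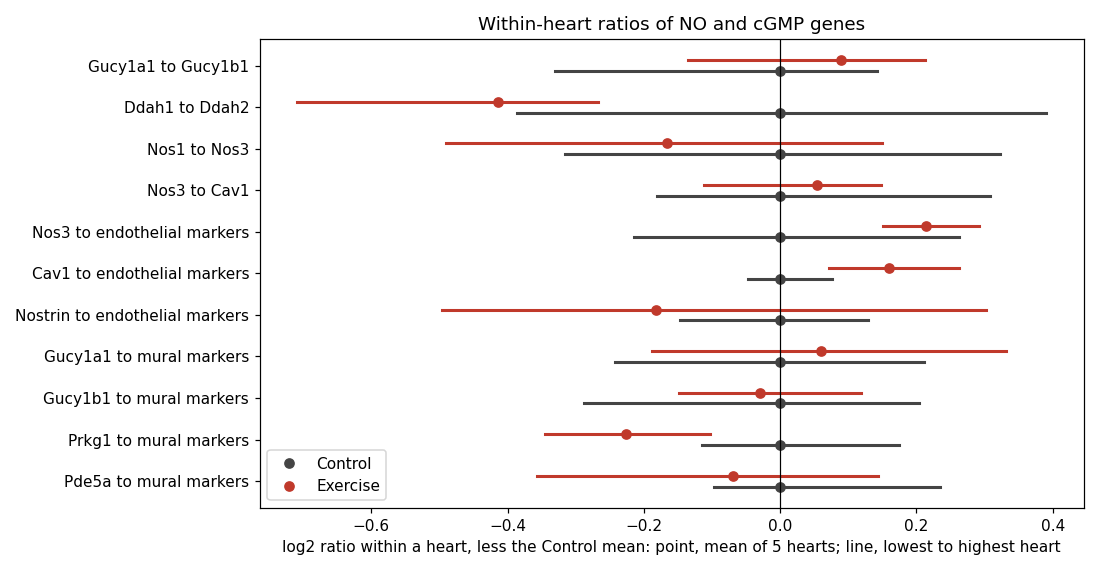
The 11 log2 ratios within a heart (rows), each less its sedentary mean (x axis), with the mean of 5 hearts as a point and the lowest to highest heart as a line, sedentary in black and training in red. Cav1 relative to endothelial markers (0.16 higher) and Prkg1 relative to mural markers (a difference of −0.23) are the rows where the lines barely overlap.

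Other genes of the pathway were taken from a list of 62 partners, of which 55 were tested. At an FDR below 0.1, 4 were higher and 3 lower after training, against 2.75% and 4.26% of all tested genes. Log2 fold changes were above 0 in 30 of them and below 0 in 25, and their median was 0.015. The 7 called genes were spread over 5 of 9 roles, and no called gene belonged to tetrahydrobiopterin supply, to the other cyclases and natriuretic peptide receptors, to the targets of the kinase or to cGMP export. None of the 7 kept its call with the atrial score as a covariate, a fit in which 62 genes were called in all.

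Among the partners of NO synthase, Calm3, a gene for calmodulin, which NO synthases need, was at 123 to 131 CPM against 129 to 154 CPM and had a log2 fold change of −0.16 (edgeR-adjusted p = 0.0929). Its call was lost in 9 of the 10 fits without 1 heart and held only without sedentary heart 1. Calm2, another calmodulin gene, had a log2 fold change of 0.00014 and was not called. Hsp90ab1, a chaperone of NO synthase and the highest of these genes per length at 619.9 ± 49.2 TPM (SD, n = 10), had a log2 fold change of −0.042 and was not called.

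Of 6 further caveolar genes, Cavin4, which is specific to muscle caveolae, was lower, at 91.4 to 115 CPM in the training and 113 to 131 CPM in the sedentary hearts (log2 fold change −0.27 ± 0.063 SE, edgeR-adjusted p = 0.0343). In 4 of 5 training hearts it lay below all sedentary hearts. Cardiomyocyte markers were below 0 in 9 of 10 genes, with 1 called lower, and their part in the Cavin4 result was not tested. The muscle caveolin Cav3 had a log2 fold change of −0.13 and was not called. Cav2, Cavin1, Cavin2 and Cavin3, which are shared with endothelium, lay between 0.028 and 0.070, none called, and Cavin1 was the highest of the group at 70.5 ± 6.35 TPM (SD, n = 10).

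In arginine supply, Slc7a2, a cationic amino acid transporter, was higher in every training heart (8.32 to 11.3 CPM) than in any sedentary heart (6.83 to 8.14 CPM), with a log2 fold change of 0.40 ± 0.081 (SE, edgeR-adjusted p = 0.0220). The transporter Slc7a1 had −0.0038 and was not called. Prmt1, an enzyme that makes asymmetric dimethylarginine and the highest of this group at 60.9 ± 4.22 TPM, had 0.060 and was not called. The arginases Arg1 and Arg2 held at most 4 and 2 reads per heart and Agxt2 held 0 in all hearts, so these were not tested. The 6 genes of tetrahydrobiopterin supply, the cofactor of NO synthase, lay between −0.069 and 0.093, with Qdpr highest at 46.0 ± 1.78 TPM. Of the genes whose products remove NO, Cygb (cytoglobin) was higher in every training heart (65.0 to 72.5 CPM) than in any sedentary heart (53.4 to 64.1 CPM), with a log2 fold change of 0.20 ± 0.053 (SE, edgeR-adjusted p = 0.0521). The call of Cygb was lost without training heart 3 or 4 or sedentary heart 2 or 4. Fibroblast markers, which moved with it, were above 0 in 8 of 8 genes, with 3 called higher, none at 0 counts and a sum of 2856 to 3802 CPM against 2617 to 2980 CPM, and their part in the Cygb result was not tested. Myoglobin (Mb), the highest of this role at 11040.5 ± 509.6 TPM, had a log2 fold change of −0.11 and was not called.

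Among phosphodiesterases other than Pde5a, Pde1c and Pde3b were higher. Pde1c, a calcium and calmodulin-dependent enzyme of cardiomyocytes, was at 70.7 to 82.0 CPM in the training and 61.0 to 73.0 CPM in the sedentary hearts, with a log2 fold change of 0.24 ± 0.057 (SE, edgeR-adjusted p = 0.0379), and was called in each of the 10 fits without 1 heart. Pde3b, a cGMP-inhibited enzyme that is abundant in adipocytes, was at 11.6 to 16.6 CPM against 9.46 to 12.3 CPM, with 0.40 ± 0.11 (SE, edgeR-adjusted p = 0.0551). Its call was lost in 5 of 10 fits, those without training heart 3 or 4 or sedentary heart 2, 3 or 5. Adipocyte markers were above 0 in 6 of 6 genes, none called and none at 0 counts, and their sum ranged from 20.7 to 172 CPM in the training and from 18.1 to 139 CPM in the sedentary hearts. Their part in the Pde3b result was not tested. Pde11a (log2 fold change −0.50, edgeR-adjusted p = 0.140) was not called. Pde6d was the highest gene listed under this role at 25.1 ± 1.53 TPM (SD, n = 10), but it encodes a noncatalytic subunit. Among the listed genes of the enzymes themselves, Pde2a was highest at 19.1 ± 1.68 TPM (SD, n = 10).

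Pde2a, the cGMP-stimulated phosphodiesterase, could not be judged from the counts of uniquely assigned reads. The gene (chromosome 7, 101070825 to 101162038) lies on the same strand as Gm45837 (101060093 to 101162026), and between 3 and 18 reads per heart were assigned to it, too few to be tested. RSEM, which shares such reads between genes, gave it between 1715 and 2884 expected counts. In TPM it was at 17.7 ± 0.954 in the training hearts (16.9 to 18.9) and at 20.4 ± 0.804 in the sedentary hearts (19.6 to 21.7), without overlap. On the RSEM expected counts its log2 fold change was −0.29 ± 0.059 (SE, edgeR-adjusted p = 0.0281), and it was called in 10 of 10 fits without 1 heart. With the atrial score as a covariate it was −0.31 (edgeR-adjusted p = 0.192). How RSEM divided the reads between both genes was not tested.

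Downstream of cGMP, 8 of 9 listed genes were tested and 0 called by edgeR, with 4 above 0 and 4 below. Irag1, a substrate of the kinase at the endoplasmic reticulum of smooth muscle, had a log2 fold change of 0.39 ± 0.13 (SE, edgeR-adjusted p = 0.118). The potassium channel genes Kcnma1 and Kcnmb1 had 0.47 and 0.31 (edgeR-adjusted p = 0.361 and 0.308). Pln, the kinase substrate that restrains calcium uptake and the highest of the group at 3404 ± 249 TPM (SD, n = 10), had −0.00083. Trpc6 held at most 14 reads per heart and was not tested. Among the natriuretic peptide receptors, Npr1 and Npr2 make cGMP apart from NO and Npr3 clears the peptides. Npr3 had 0.42 (edgeR-adjusted p = 0.143), Npr1 0.084 and Npr2, the highest at 24.4 ± 1.33 TPM, −0.049. The cyclase subunit gene Gucy1b2 and the receptor gene Gucy2c held at most 13 and 1 reads per heart. For cGMP export, Abcc4 had −0.20 (edgeR-adjusted p = 0.124) and Abcc5, the higher of both at 17.7 ± 1.26 TPM, had 0.13 (edgeR-adjusted p = 0.183).

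**Figure D4:**
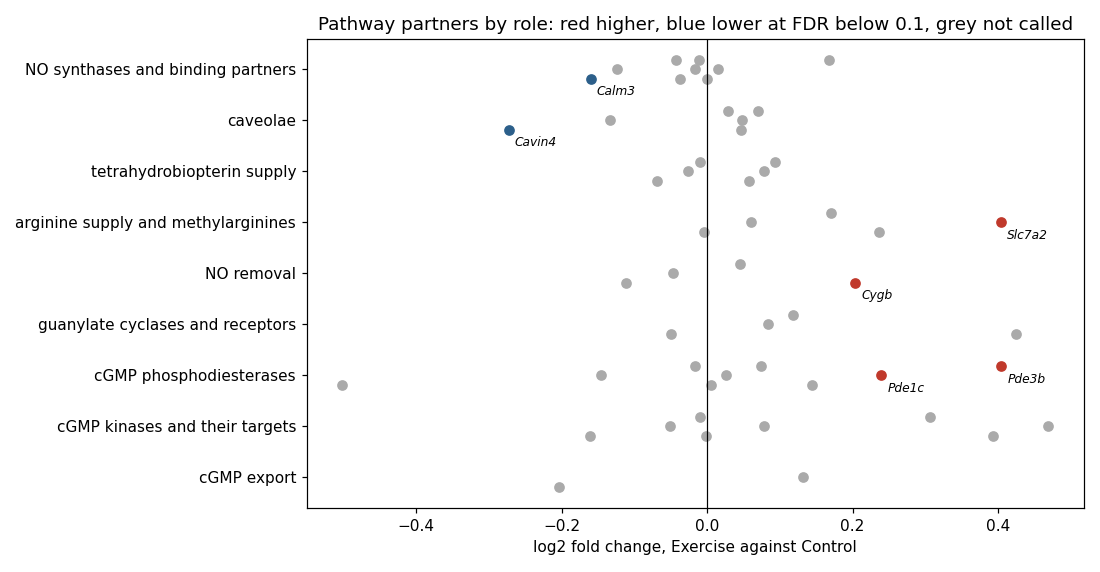
Log2 fold change between training and sedentary hearts (x axis) of the tested partners that are reported here, 1 point per gene in rows by role. The called genes shown are coloured and named, with Slc7a2, Cygb, Pde1c and Pde3b higher (0.20 to 0.40) and Calm3 and Cavin4 lower (−0.16 and −0.27).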

How the data were processed

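Poly-A RNA of 10 whole hearts, 5 Exercise and 5 Control by their labels, was sequenced as single reads in 1 pool from directional libraries. The authors aligned reads to GRCm39 with STAR 2.7.10a and deposited its raw gene counts, which hold uniquely mapped reads. RSEM 1.3.3 gave the deposited expected counts, TPM and weighted gene lengths per heart; its strand setting is not given in the sources used here. The deposited lengths, in bases, are other values that entered no test.

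Reverse-strand counts, which held between 94.9% and 95.6% of stranded counts, were used here. Summary lines did not enter library sizes (multimapping reads 17.9% to 19.2%, reads on no gene 4.15% to 4.89% of all reads, ambiguous reads 0.940% to 0.998%). Symbols came from GENCODE M39 by identifier and matched 56017 of 56748. In R 4.3.3, edgeR 4.0.16 was run with filterByExpr, TMM and the quasi-likelihood test over all genes, with Benjamini-Hochberg adjustment. Log2 ratios used a prior count of 2 and an exact permutation test over 252 assignments, whose smallest p is 0.00794. RSEM expected counts were rounded for tests. Start-site windows from RefSeq (GRCm38.p6) matched 9 of 10 genes, and no coordinates were moved between builds.

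The script was tested on simulated data. Alternatives were DESeq2 1.42.0, other scalings, filters and kinds of count, thinned counts, the mouse number as a block, marker scores as covariates and each heart left out. Splits of marker lists and the separate Pde2a fits were added after seeing the data. Named were all 10 genes, partners at an FDR below 0.1, the highest partner of each role and partners not tested; Pde11a, Irag1, Kcnma1, Npr3, Abcc4 and other partners were named after their values were seen. The genes and lists were chosen with earlier results of these data known. Some partners in the counts are not reported here by name. Hearts are 1 per mouse, so errors are between mice.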

Additional observations from a re-analysis of the deposited data

Results flagged for a closer look

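Of 20 sets of 5 hearts (10 genes in each group), 1 held a heart that stood apart by Dixon's criterion, which chance exceeds in about 1 set of 20. Sedentary heart 2 was at 16.3 CPM of Prkg1, below the other sedentary hearts, which lay between 17.2 and 17.5 CPM. It remained within the range of the training hearts.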

How the results depend on the processing

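Over all genes, edgeR called 1084 (425 higher and 659 lower), and 62 with the atrial score, 0 with the endothelial score (1038 at an unadjusted p under 0.05; the endothelial sums of the groups do not overlap) and 512 to 1490 with each heart left out. Library totals alone turned the split to 1029 higher and 339 lower, and DESeq2 called 1375. Of the 10 genes, edgeR called 1 with library totals alone (Ddah2, 0.27), 1 with the block (Gucy1a1, 0.20) and 0 to 2 with each heart left out. Of the partners, 7 were called, 0 with either score, and 4 to 11 with each heart left out. Log2 fold changes without 1 heart ran from 0.15 to 0.27 for Gucy1a1, 0.16 to 0.26 for Ddah2 and −0.39 to −0.17 for Nostrin. Ratio differences ran from −0.51 to −0.32 for Ddah1 to Ddah2, 0.16 to 0.28 for Nos3, 0.13 to 0.18 for Cav1 (both to endothelial markers) and −0.26 to −0.18 for Prkg1 to mural markers. Prkg1 differed by −0.47 to the contractile and −0.064 to the other mural markers. Of 210 alternative log2 fold changes of the 10 genes, 205 kept their side of the threshold, 5 became calls and 11 had the opposite sign, none of those called. The cause of these moves was not tested.

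The mouse numbers do not pair the hearts: deviations of same-numbered hearts correlated between −0.097 and 0.16 and few hearts correlated best with their own number (1 of 5 training, 2 of 5 sedentary). The fit with the mouse number as a block called 1137 genes, with Gucy1a1 at 0.20 (edgeR, adjusted p = 0.0460). Counting limits Nos1 most, at 27 to 54 reads per heart.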

Other observations

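The gene lengths that RSEM weights by transcript abundance varied among hearts for Nos1, from 4275 to 10123 bases, at 27 to 54 reads per heart. For Gucy1a1 the length was 3788 bases in sedentary heart 1, and it lay between 4206 and 4556 bases in the other 9 hearts. Sedentary heart 1 was at 12.27 TPM and 42.5 CPM for this gene, and training heart 4, the highest in both, at 12.35 TPM and 49.3 CPM. The spread among hearts also differed by gene and group. The coefficient of variation of Pde5a was 16.5% in the training and 5.63% in the sedentary hearts, that of Nostrin 22.9% and 10.8%, and that of Nos3 5.87% and 12.5%. These differences in spread were not tested.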
